A study of Danio rerio with 14 samples.

Results

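The Wnt pathway genes of the deposited zebrafish gastrula table were examined in 14 RNA sequencing libraries of whole embryos. Members were all rows whose gene symbol begins with wnt, fzd, dkk, sfrp, axin, dvl, lrp5, lrp6, tcf7, lef1, ctnnb1, sp5, ror1, ror2 or vangl, each gene taken by its transcript with the most reads. The rule found 53 of the 13830 gene symbols in the table: 18 ligands, 13 receptors, 7 secreted inhibitors, 6 cytoplasmic transducers, 2 planar polarity proteins, 5 nuclear factors and 2 target factors. No row matched ror1 or ror2.

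The libraries formed 6 groups of 2 or 3. Untreated bmp7 mutants (bmp7-/-, allele sb1aub of bmp7a, which encodes a BMP ligand) and untreated wild-type embryos gave 2 libraries each at 6 hpf (hours post fertilization, shield stage) and 2 each at 8 hpf (70% epiboly), with 40 embryos in each library. The bmp7 mutants of the remaining groups were treated at 4 hpf with 10 µg/ml cycloheximide (CHX), a blocker of protein synthesis, for 30 minutes. One of these groups (CHX+BMP2/7) then received 3 nl of 120 nM human BMP2/7 heterodimer, or 10 pg of protein, and the other (CHX) did not. Both gave 3 libraries of 50 embryos. No vehicle-injected group was used here, so the act of injection and the protein cannot be told apart. The mutants came from homozygous parents that had been rescued as embryos, and the library headings call the wild-type samples heterozygous, so the genotype of the embryo and differences between parents or lines cannot be told apart. Fewer cells of a type and less RNA per cell cannot be told apart in whole embryos.

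Wnt proteins are secreted ligands that bind Frizzled receptors. In the canonical branch, Frizzled and the co-receptors Lrp5 and Lrp6 recruit Dishevelled and Axin, β-catenin escapes degradation, and it acts in the nucleus with Tcf and Lef proteins. In the planar polarity branch, ligands such as Wnt5b and Wnt11 act through Frizzled, Dishevelled and Vangl proteins on cell movements. In the zebrafish gastrula, Wnt8a from the margin promotes ventrolateral and posterior fates beside BMP, while Dkk and Sfrp proteins are extracellular modulators of the pathway.

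Levels are CPM (counts scaled to a common library size) scaled with TMM factors over all libraries, and they are compared only within a gene because transcript lengths were not used. Libraries held 5034277 to 23153881 counts, and the shallowest was bmp7 mutant replicate 1 at 8 hpf. As a check of the labels, bmp7a stood at 0.470 to 3.33 CPM in the 4 untreated mutant libraries, against 40.3 to 63.9 CPM in the 4 wild-type libraries. The 6 CHX libraries are also labelled bmp7-/-, yet held 14.8 to 28.9 CPM of bmp7a, which is above every untreated mutant library. The 6 markers of ventral and non-neural ectoderm summed to 218 to 358 CPM in the untreated mutants, against 547 to 1064 CPM in wild-type embryos, and to 1495 to 1927 CPM in CHX+BMP2/7 embryos, against 587 to 709.8 CPM with CHX alone. At 6 and at 8 hpf alike, 4 of the 6 (gata2a, dlx3b, foxi1 and tfap2c) were lower in mutants, and none of the 6 was at 0 in any group. The paper names foxi1, tp63, tfap2c and dlx3b as BMP targets, which were chosen on these samples. The direction of these sums is therefore not independent evidence of tissue content. The 4 dorsal organizer and axial mesoderm markers summed to 1529 to 1679 CPM in mutants at 8 hpf, against 747 to 936 CPM in wild-type embryos. In that list chrd was higher in mutants at 8 hpf, while shha was lower at both stages, with 0 counts in both mutant libraries at 6 hpf and 1 count over those at 8 hpf, against 89 and 130 counts in wild-type embryos. shha was also at 0 in all 6 CHX libraries. chrd is in the study's list of genes lowered by BMP, which was likewise chosen on these samples. The 4 markers of the mesoderm margin summed to 2452 to 3426 CPM in CHX+BMP2/7 embryos, against 1289 to 1709 CPM with CHX alone. Of these, ta was called higher, tbx16 and msgn1 were not called (log2 fold change 0.46 and −0.35), and tbx6 was not tested. The 3 neural ectoderm markers summed to 379 to 489 CPM in CHX+BMP2/7 embryos, against 108 to 188 CPM with CHX alone, with sox3 called higher (edgeR adjusted p = 0.00468). The 4 organizer markers summed to 751 to 780 CPM in CHX+BMP2/7 embryos, against 973 to 1176 CPM with CHX alone, with no call. The part of these tissue markers in the results below was not tested.

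Many Wnt family members had next to no reads. Of the 53 members, 39 passed the filter on low counts in at least 1 fit and 14 passed in none. The 14 were the ligands wnt1, wnt2ba, wnt3, wnt4b, wnt5a, wnt7aa, wnt9a, wnt9b, wnt10a, wnt10b and wnt11, and the inhibitors dkk1a, dkk2 and sfrp2, with 1 to 31 counts each over all libraries and at most 6 in any library. The row named wnt11 (NM_001144804, called wnt11f2 in RefSeq for GRCz12tu, the gene of the silberblick mutant) had 5 counts in total, in 3 of the CHX libraries. Whether this row captures all transcripts of the gene was not tested, so its few counts do not show that the gene was silent. The rows wnt8a (NM_130946) and wnt8-2 (NM_001020801) held the same count in every library. Their reads cannot be told apart, the pair is one measurement listed under both names, and the 53 members are 52 distinct sets of counts.

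At 6 hpf, the bmp7 mutants had lower levels of fzd3a, fzd5, lrp6, sfrp1a, dvl2, vangl2, tcf7l1a and tcf7, and higher levels of dkk3a and dkk3b, than wild-type embryos. Of 35 members tested, 8 were lower and 2 higher at an adjusted p under 0.05 (edgeR quasi-likelihood test, Benjamini-Hochberg over all rows), that is 28.6% of those tested, beside 15.4% of all 10029 genes tested. The median log2 fold change of the members was −0.09, and that of all genes tested was −0.04. By role, 3 of 12 receptors, 2 of 5 nuclear factors, 1 of 5 cytoplasmic transducers, 1 of 4 secreted inhibitors and the only planar polarity gene tested were lower, 2 of the 4 secreted inhibitors were higher, and none of 6 ligands passed the test. The split between directions depended on the method, with 6 higher and 7 lower by DESeq2 and 5 higher and 8 lower with the replicate number as a block. The higher calls of both alternatives include wnt8a and wnt8-2, which are one measurement.

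**Figure D1:**
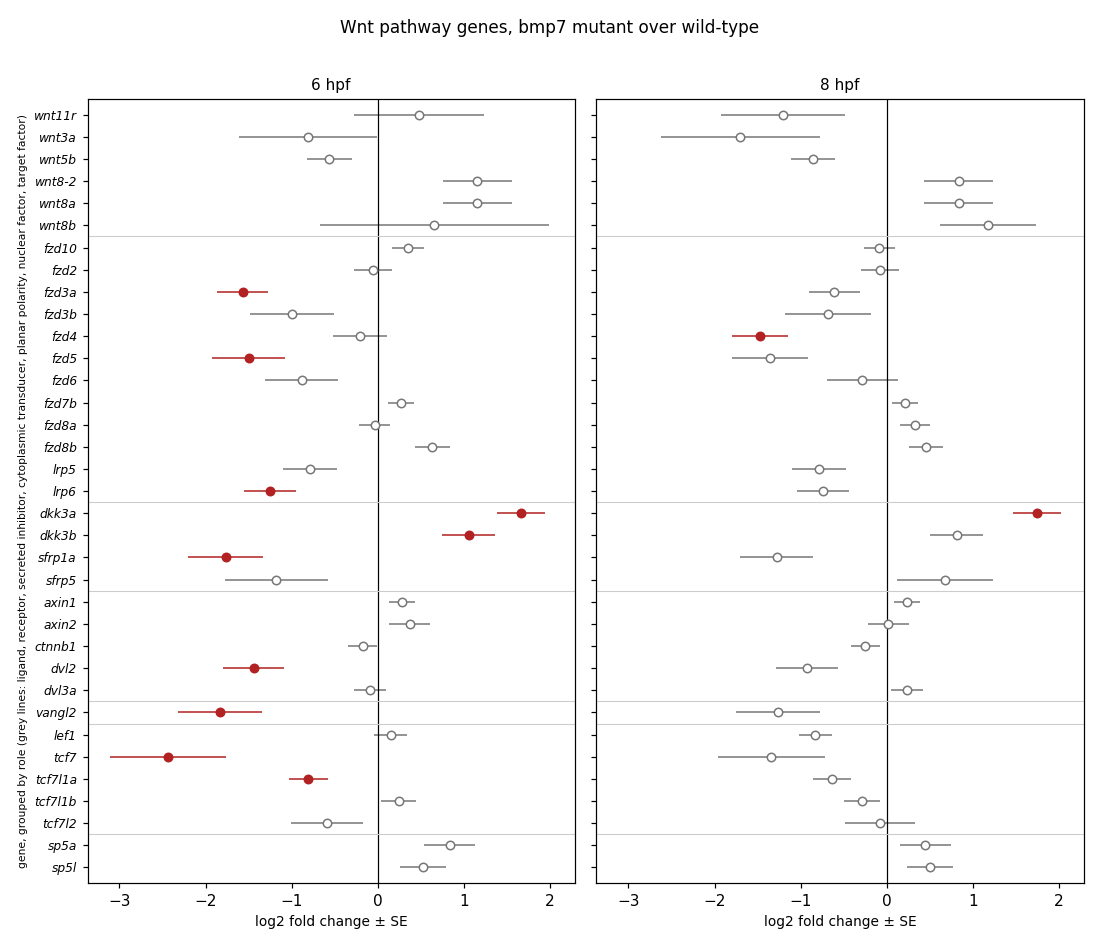
Log2 fold change (x axis, ± SE) of the 35 Wnt pathway genes tested (y axis, grouped by role), bmp7 mutant over wild-type at 6 hpf (left) and 8 hpf (right). Filled red points passed an adjusted p of 0.05; at 6 hpf 8 of these lie left of 0 and 2 right of it, and at 8 hpf 1 lies on each side.

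Among the ligands, wnt8a, the marginal ligand, had 361 and 868 CPM in mutants, against 242 and 299.5 CPM in wild-type embryos at 6 hpf. Both mutant libraries were above both wild-type libraries, but the mutant libraries lay far apart, and the log2 fold change of 1.15 (SE 0.40) had an adjusted p of 0.0801. wnt8a was called higher by DESeq2 (adjusted p = 0.0128), with no filter on low counts (0.0311), with the replicate block (0.0433) and without mutant replicate 1 (0.0347), and its adjusted p over all alternatives ran up to 0.537. Its log2 fold change was 1.67 without mutant replicate 1 and 0.37 without mutant replicate 2. At 8 hpf wnt8a had 944 and 691 CPM in mutants, against 335 and 584 CPM in wild-type embryos (log2 fold change 0.83, SE 0.40, adjusted p = 0.247). The planar polarity ligand wnt5b lay the other way without passing the test. It had 29.3 and 20.6 CPM in mutants, against 37.2 and 34.9 CPM in wild-type embryos at 6 hpf (log2 fold change −0.56, SE 0.26, adjusted p = 0.159). At 8 hpf it had 28.2 and 31.2 CPM in mutants, against 63.0 and 45.1 CPM in wild-type embryos, with no overlap of the groups (log2 fold change −0.86, SE 0.26, adjusted p = 0.102).

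Among the receptors, fzd3a (NM_001042761), a Frizzled of the planar polarity branch, had 7.20 and 8.89 CPM in mutants, against 25.2 and 21.6 CPM in wild-type embryos at 6 hpf. The groups were well apart, and fzd3a was lower by a log2 fold change of −1.57 (SE 0.30, adjusted p = 0.0134). At 8 hpf its groups were still apart, at 15.4 and 19.0 CPM in mutants, against 31.5 and 21.5 CPM in wild-type embryos, but the difference did not pass the test (log2 fold change −0.61, SE 0.29, adjusted p = 0.25).

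The Frizzled gene fzd5 had 2.16 and 1.51 CPM in mutants, against 4.91 and 5.29 CPM in wild-type embryos at 6 hpf. It fell by 1.499 on the log2 scale (SE 0.43, adjusted p = 0.0444). At 8 hpf it had 1.32 and 1.88 CPM in mutants, against 3.50 and 5.07 CPM in wild-type embryos (log2 fold change −1.36, SE 0.44, adjusted p = 0.115). All 4 mutant libraries thus lay below all 4 wild-type libraries for fzd5, with the call made at 6 hpf alone. DESeq2 did not call fzd5 at 6 hpf, nor did the edgeR fit of the 4 libraries of that stage.

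The co-receptor gene lrp6 had 13.2 and 11.5 CPM in mutants, against 31.3 and 26.4 CPM in wild-type embryos at 6 hpf, and fell by 1.25 on the log2 scale (SE 0.30, adjusted p = 0.0281). At 8 hpf it had 10.1 and 14.3 CPM in mutants, against 24.6 and 17.0 CPM in wild-type embryos (log2 fold change −0.74, SE 0.30, adjusted p = 0.185). The related co-receptor gene lrp5 had 12.7 and 11.3 CPM in mutants, against 25.1 and 15.4 CPM in wild-type embryos at 6 hpf (log2 fold change −0.79, SE 0.31, adjusted p = 0.115). Neither co-receptor gene overlapped between genotypes at either stage. With 2 libraries a group this was common, as 24 of the 35 members tested did not overlap at 6 hpf and 29 did not at 8 hpf. The share over all genes was not counted.

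The other Frizzled genes gave no call at 6 hpf. fzd7b, a Frizzled expressed widely in the early embryo, had 962 and 923 CPM in mutants, against 721 and 808 CPM in wild-type embryos (adjusted p = 0.239). fzd8b had 84.6 and 106 CPM in mutants, against 54.8 and 65.8 CPM in wild-type embryos, with an adjusted p of 0.0634. DESeq2 and edgeR with the replicate block called fzd8b higher in mutants. The groups of fzd8a overlapped at 6 hpf.

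**Figure D2:**
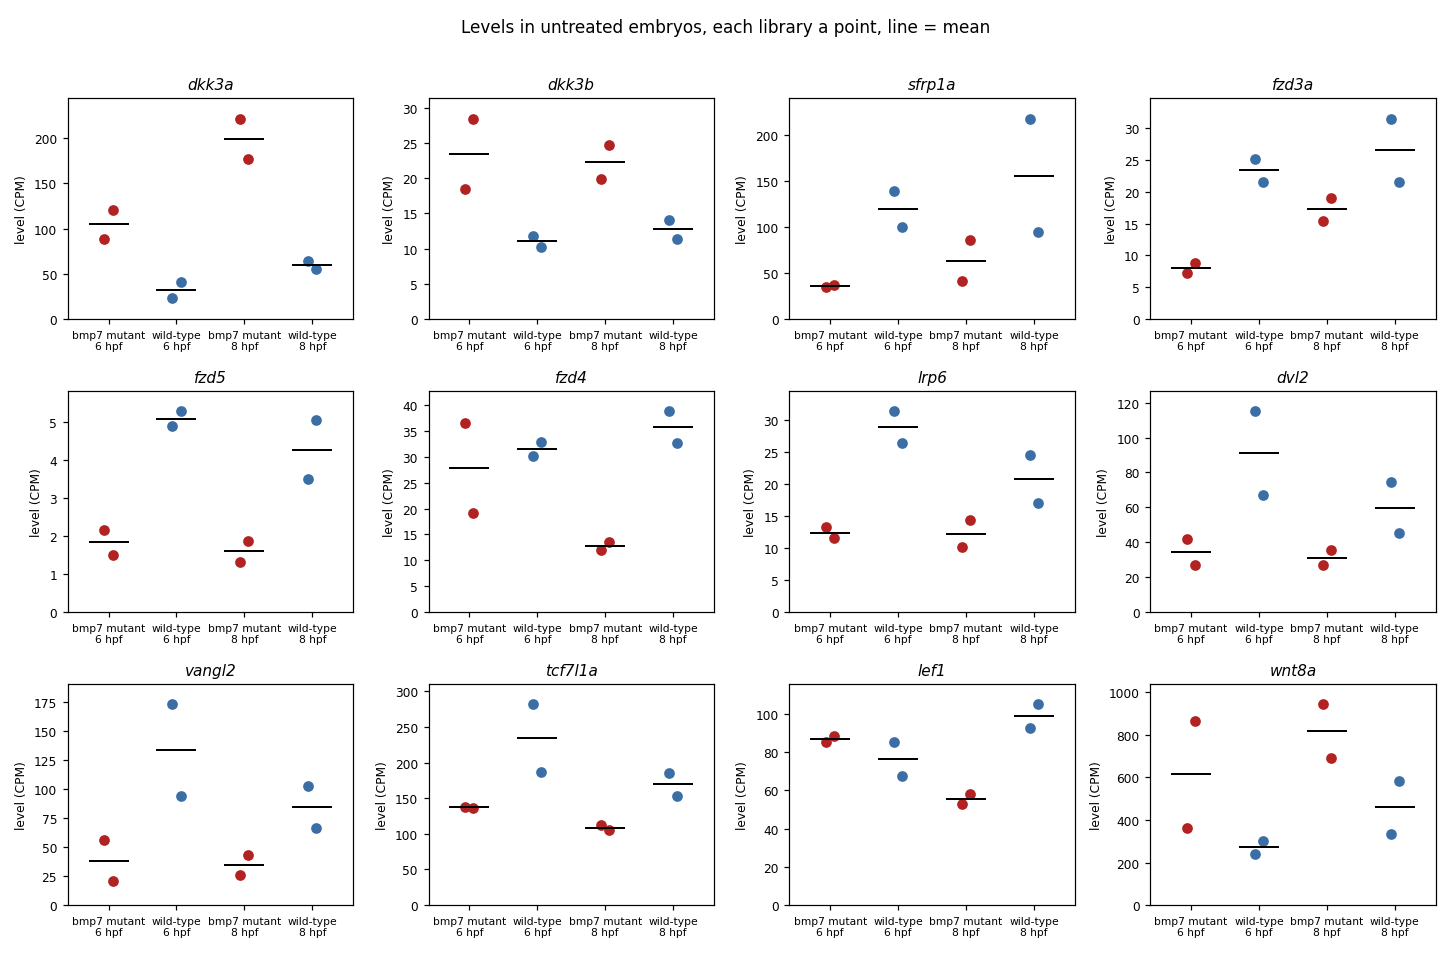
Levels (y axis, CPM) of 12 Wnt pathway genes in untreated bmp7 mutant (red) and wild-type (blue) embryos at 6 and 8 hpf, each point a library and each line the mean of 2. For dkk3a the mutant points lie above the wild-type points at both stages, for fzd5 below them at both stages, and for fzd4 below them at 8 hpf only.

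The secreted inhibitors moved in both directions. dkk3a, a member of the Dickkopf family whose relation to Wnt receptors is less settled than that of Dkk1, had 88.9 and 120.6 CPM in mutants, against 23.8 and 41.0 CPM in wild-type embryos at 6 hpf (log2 fold change 1.66, SE 0.28, adjusted p = 0.0101). At 8 hpf it had 222 and 176 CPM in mutants, against 63.9 and 55.2 CPM in wild-type embryos (log2 fold change 1.74, SE 0.28, adjusted p = 0.0164). In the edgeR fit of the 8 untreated libraries dkk3a was the only member called at both stages, higher in mutants each time. DESeq2 also called sfrp1a and vangl2 at both stages, lower in mutants each time. Its paralog dkk3b had 18.5 and 28.5 CPM in mutants, against 11.9 and 10.2 CPM in wild-type embryos at 6 hpf (log2 fold change 1.06, SE 0.31, adjusted p = 0.0482). At 8 hpf dkk3b had 19.9 and 24.7 CPM in mutants, against 14.1 and 11.4 CPM in wild-type embryos, which did not pass the test (log2 fold change 0.81, SE 0.31, adjusted p = 0.158).

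sfrp1a, a secreted Frizzled-related protein gene, had 34.9 and 37.1 CPM in mutants, against 139 and 100.4 CPM in wild-type embryos at 6 hpf. It fell by 1.77 on the log2 scale (SE 0.43, adjusted p = 0.03). At 8 hpf the libraries of each genotype spread widely, with 41.3 and 85.9 CPM in mutants, against 218 and 94.3 CPM in wild-type embryos (log2 fold change −1.28, SE 0.43, adjusted p = 0.122). DESeq2 called sfrp1a lower at 8 hpf. The inhibitor gene sfrp5 overlapped between genotypes at 6 hpf.

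Of the cytoplasmic transducers, the Dishevelled gene dvl2 had 41.7 and 26.8 CPM in mutants, against 114.9 and 66.9 CPM in wild-type embryos at 6 hpf, and fell by 1.44 on the log2 scale (SE 0.36, adjusted p = 0.0307). The other Dishevelled gene tested, dvl3a, had 108 and 120.97 CPM in mutants, against 114.3 and 124.03 CPM in wild-type embryos, with overlapping groups (log2 fold change −0.09, SE 0.19, adjusted p = 0.756). ctnnb1, which encodes β-catenin, had 2526 and 2053 CPM in mutants, against 2725 and 2336 CPM in wild-type embryos, again with overlap (adjusted p = 0.488). The Axin gene axin1, part of the complex that degrades β-catenin, had 221 and 218 CPM in mutants, against 169.5 and 185 CPM in wild-type embryos (adjusted p = 0.233).

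vangl2, a core membrane protein of planar polarity, had 56.0 and 20.7 CPM in mutants, against 173 and 93.7 CPM in wild-type embryos at 6 hpf. It fell by 1.83 on the log2 scale (SE 0.49, adjusted p = 0.0377), and both genotypes varied strongly between libraries. At 8 hpf vangl2 had 25.8 and 43.1 CPM in mutants, against 102 and 66.0 CPM in wild-type embryos (log2 fold change −1.26, SE 0.49, adjusted p = 0.164). DESeq2 called vangl2 lower at 8 hpf.

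In the nucleus, tcf7l1a, a Tcf factor that represses targets in the absence of β-catenin, had 138 and 136 CPM in mutants, against 282 and 187 CPM in wild-type embryos at 6 hpf (log2 fold change −0.81, SE 0.22, adjusted p = 0.0404). Its paralog tcf7l1b overlapped between genotypes. tcf7 had 0.630 and 0.473 CPM in mutants, against 4.07 and 1.88 CPM in wild-type embryos, and fell by 2.44 on the log2 scale (SE 0.67, adjusted p = 0.041), from few reads. tcf7l2 had 2.61 and 1.61 CPM in mutants, against 3.77 and 2.47 CPM in wild-type embryos, and did not pass the test (adjusted p = 0.349).

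The canonical readouts axin2, sp5a and sp5l were not called at either stage in the fit of the 8 untreated libraries. axin2, a feedback target, had 131 and 169 CPM in mutants, against 121.3 and 106 CPM in wild-type embryos at 6 hpf (log2 fold change 0.37, SE 0.24, adjusted p = 0.31). At 8 hpf axin2 had 209.8 and 209 CPM in mutants, within the wild-type libraries at 160.1 and 255 CPM. The Sp factor genes sp5a and sp5l, targets of Wnt8 signaling in zebrafish, stood higher in the mutants at 6 hpf without a call. sp5a had 83.4 and 112.4 CPM in mutants, against 59.9 and 47.5 CPM in wild-type embryos (log2 fold change 0.83, SE 0.30, adjusted p = 0.0864), and sp5l had 792 and 883 CPM in mutants, against 580.1 and 559.7 CPM in wild-type embryos (adjusted p = 0.2). DESeq2 called sp5a higher at 6 hpf (adjusted p = 0.0369), as did the edgeR test without wild-type replicate 1 or 2 at 8 hpf (0.0412 and 0.043), and over all alternatives its adjusted p ran up to 0.346.

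The lower calls at 6 hpf shared an order of libraries. Of the 8 genes, 7 were higher in replicate 1 than in replicate 2 of the wild-type embryos at 6 hpf, and 7 were so at 8 hpf, in both cases all but fzd5. All 8 were lowest in replicate 3 among the 3 libraries with CHX alone, and the corresponding shares of all 912 genes called lower at 6 hpf were 63.2%, 72.1% and 54.5%. Among all genes tested they were 47.2%, 51.2% and 38.3%. What sets this order was not tested.

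These calls rested on few libraries. Without wild-type replicate 1 at 6 hpf 1 of the 10 remained (dkk3a), without mutant replicate 1 at 6 hpf 2 remained (dkk3a and vangl2), and without mutant replicate 2 at 6 hpf none did. Fewer calls also remained without mutant replicate 1 or 2 at 8 hpf. These libraries are not in the groups compared but enter the spread, the filter on low counts and the scaling factors. All 10 kept their direction whichever library was left out. The log2 fold change of tcf7l1a was −0.46 without wild-type replicate 1, and that of dkk3b was 0.70 without mutant replicate 2. That of tcf7 was −1.76 without wild-type replicate 1, and that of vangl2 was −2.70 without mutant replicate 1. In a fit of the 4 libraries at 6 hpf alone, 5 calls remained (dkk3a, dvl2, fzd3a, lrp6 and sfrp1a).

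At 8 hpf, 2 of 35 members tested were called, 1 higher (dkk3a, above) and 1 lower (fzd4), or 5.71% of those tested beside 3.15% of all genes tested. The median log2 fold change of the members was −0.25, and that of all genes tested was −0.02. fzd4 (NM_001305469), which encodes a Frizzled receptor, had 11.9 and 13.6 CPM in mutants, against 38.8 and 32.6 CPM in wild-type embryos. The genotypes were well apart and fzd4 fell by 1.47 on the log2 scale (SE 0.32, adjusted p = 0.0462). At 6 hpf the mutant libraries of fzd4, at 36.6 and 19.2 CPM, had spanned the wild-type ones at 30.2 and 32.8 CPM (log2 fold change −0.21, SE 0.31, adjusted p = 0.664).

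lef1, which encodes a nuclear partner of β-catenin and is itself a Wnt target, was near the threshold at 8 hpf. It had 52.7 and 58.1 CPM in mutants, against 92.9 and 105 CPM in wild-type embryos (log2 fold change −0.83, SE 0.20, adjusted p = 0.0563). With DESeq2 its adjusted p was 0.0152 and with the 4 libraries at 8 hpf alone it was 0.0441. It was not called with RLE factors, another scaling of the libraries, or with transcripts summed per gene. The calls of dkk3a and fzd4 were both lost without any one of the 4 libraries at 8 hpf, with adjusted p of 0.0676 to 0.13 for dkk3a and 0.0849 to 0.26 for fzd4, while both kept their direction. The replicate numbers of the untreated libraries were not taken as pairs.

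Genes of the pathway outside the symbol rule were counted from a list of 62 components such as Groucho corepressors, proteoglycans and planar polarity proteins, of which 33 were tested in the untreated libraries. At 6 hpf 5 were lower in mutants and none higher, or 15.2% of those tested beside 15.4% of all genes tested, a share near that of all genes. The 5 were bcl9, a β-catenin cofactor, gpc4, a glypican used in convergence and extension, celsr2 and scrib, planar polarity proteins, and tle3a, a Groucho-type corepressor. tle3a, which is also among the study's own BMP target genes and so is not independent evidence, had 6.39 and 7.57 CPM in mutants, against 22.8 and 28.8 CPM in wild-type embryos (log2 fold change −1.92, SE 0.27, adjusted p = 0.00532). gpc4 had 50.9 and 43.2 CPM in mutants, against 155 and 92.7 CPM in wild-type embryos (log2 fold change −1.43, SE 0.30, adjusted p = 0.0176). The list's median log2 fold change was −0.20 at 6 hpf.

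At 8 hpf 1 of the 33 was lower and 1 higher, or 6.06% beside 3.15% of all genes tested. tle3a again was lower, with 7.06 and 6.17 CPM in mutants, against 32.0 and 36.7 CPM in wild-type embryos (log2 fold change −2.38, SE 0.28, adjusted p = 0.00315). wif1, the secreted Wnt inhibitory factor, had 7.28 and 8.99 CPM in mutants, against 1.95 and 2.10 CPM in wild-type embryos (log2 fold change 2.02, SE 0.45, adjusted p = 0.0494). All 4 tle3a libraries of mutants lay below all 4 of wild-type embryos.

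Of 20 genes known as Wnt/β-catenin targets in the gastrula, 19 were tested in the untreated libraries. In this list axin2, sp5a, sp5l and lef1 are also members, and nkd1, notum1a and znrf3 are also in the list of components. At 6 hpf 3 were lower in mutants, ved, a ventral homeobox repressor, cdx1a, a caudal factor of posterior fates, and tbx16, a mesodermal T-box factor. These were 15.8% of those tested, again near the 15.4% of all genes. At 8 hpf 2 were lower, ved and vox, a related repressor, or 10.5% beside 3.15% of all genes, and none was higher at either stage. ved had 62.1 and 59.1 CPM in mutants, against 175 and 184 CPM in wild-type embryos at 6 hpf (log2 fold change −1.60, SE 0.18, adjusted p = 0.0021). At 8 hpf it had 25.2 and 23.6 CPM in mutants, against 233 and 195 CPM in wild-type embryos (log2 fold change −3.13, SE 0.19, adjusted p = 0.000134). ved, vox and cdx1a are also in the study's list of BMP targets, which was chosen on these samples.

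In CHX-treated mutants collected 90 minutes after injection of BMP2/7, several ligand and receptor genes were higher than with CHX alone. Of 35 members tested, 6 were higher and 1 lower, 20% of those tested beside 2.26% of all 9444 genes tested, with median log2 fold changes of 0.07 for the members and 0.00 for all genes. As wnt8a and wnt8-2 are one measurement, the 7 calls are 6 distinct sets of counts. By role, 3 of 5 ligands (wnt5b and the pair) and 3 of 13 receptors (fzd1, fzd4 and fzd5) were higher, and 1 of 2 target factors (sp5l) was lower. None of the secreted inhibitors, cytoplasmic transducers, planar polarity genes or nuclear factors passed this test. Here too the split between directions depended on the method, with 8 higher and 4 lower by DESeq2. In the fit of all 14 libraries 4 were higher and 3 lower, as the wnt8a pair was lost and fzd7b and fzd8a were called lower.

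**Figure D3:**
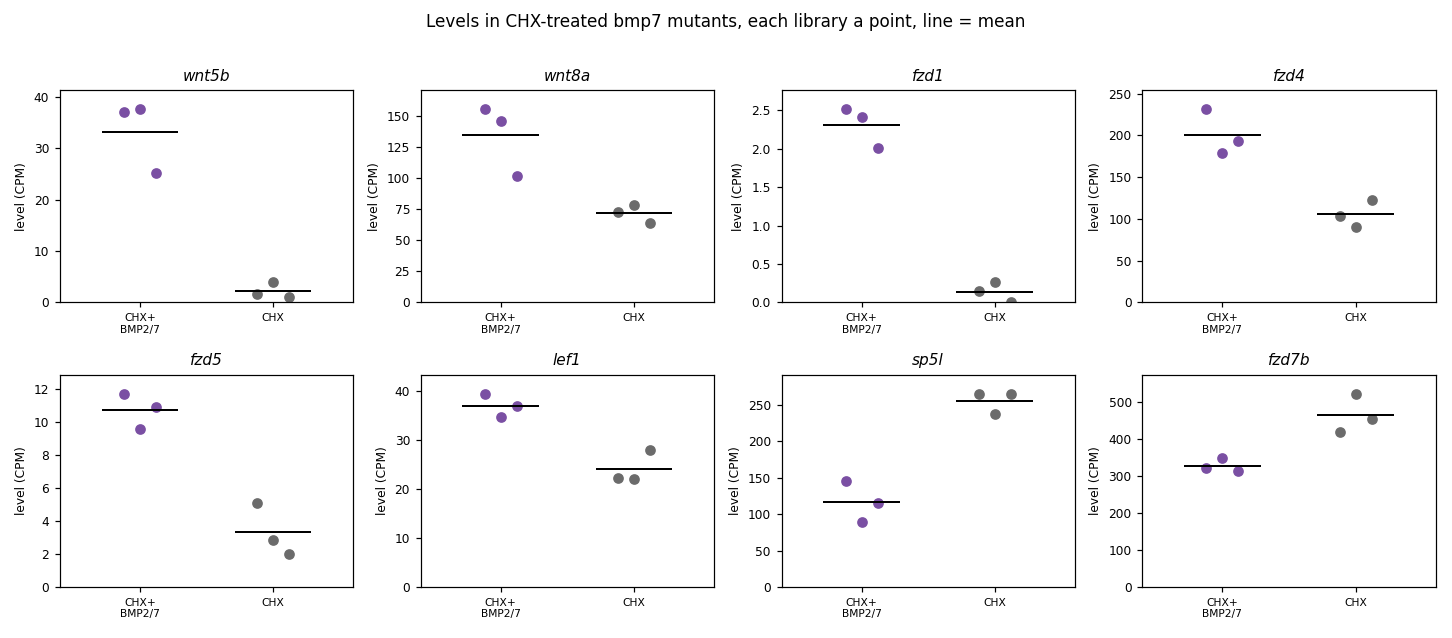
Levels (y axis, CPM) of 8 Wnt pathway genes in bmp7 mutants treated with CHX and BMP2/7 (purple, left) or with CHX alone (grey, right), each point a library and each line the mean of 3. The CHX+BMP2/7 points lie above the CHX points for wnt5b, wnt8a, fzd1, fzd4, fzd5 and lef1 and below them for sp5l and fzd7b.

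wnt5b (NM_130937) had 36.9, 37.6 and 25.1 CPM in CHX+BMP2/7 embryos, against 1.56, 4.04 and 0.953 CPM in CHX embryos. Every injected library was above every CHX library, and wnt5b rose by a log2 fold change of 3.89 (SE 0.46, adjusted p = 0.0047). It stayed called whichever of the 6 libraries was left out, with adjusted p of at most 0.0495. In the untreated mutants wnt5b stood at 20.6 to 31.2 CPM.

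wnt8a, with its indistinguishable partner, had 156, 146 and 102 CPM in CHX+BMP2/7 embryos, against 72.8, 78.9 and 64.4 CPM in CHX embryos. The groups did not overlap and wnt8a rose by 0.92 on the log2 scale (SE 0.16, adjusted p = 0.0288). In untreated embryos the mutant values had at each stage lain above the wild-type values, with a call only under the alternatives given above. In the fit of all 14 libraries its adjusted p was 0.223. The only other ligands tested, wnt4a and wnt11r, were not called.

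fzd1, a Frizzled receptor gene with few reads, had 2.51, 2.42 and 2.003 CPM in CHX+BMP2/7 embryos, against 0.142, 0.263 and 0 CPM in CHX embryos. It rose by 3.91 on the log2 scale (SE 0.57, adjusted p = 0.0118). fzd5 had 11.7, 9.60 and 10.9 CPM in CHX+BMP2/7 embryos, against 5.12, 2.84 and 1.99 CPM in CHX embryos, and rose by 1.72 (SE 0.33, adjusted p = 0.0387). fzd4 had 231, 178 and 193 CPM in CHX+BMP2/7 embryos, against 104, 90.5 and 122.2 CPM in CHX embryos, and rose by 0.95 (SE 0.15, adjusted p = 0.0149). In all 3 genes the injected libraries were above every CHX library. Of the 35 members tested, 13 had no overlap between these groups, and the share over all genes was not counted. fzd4 and fzd5 were thus higher after BMP2/7. Each was called lower in untreated mutants at 1 stage, fzd5 at 6 hpf (though not by DESeq2) and fzd4 at 8 hpf. Both genes are in the study's list of BMP targets, which was chosen on these samples, so the counts here are not independent evidence of their direction.

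**Figure D4:**
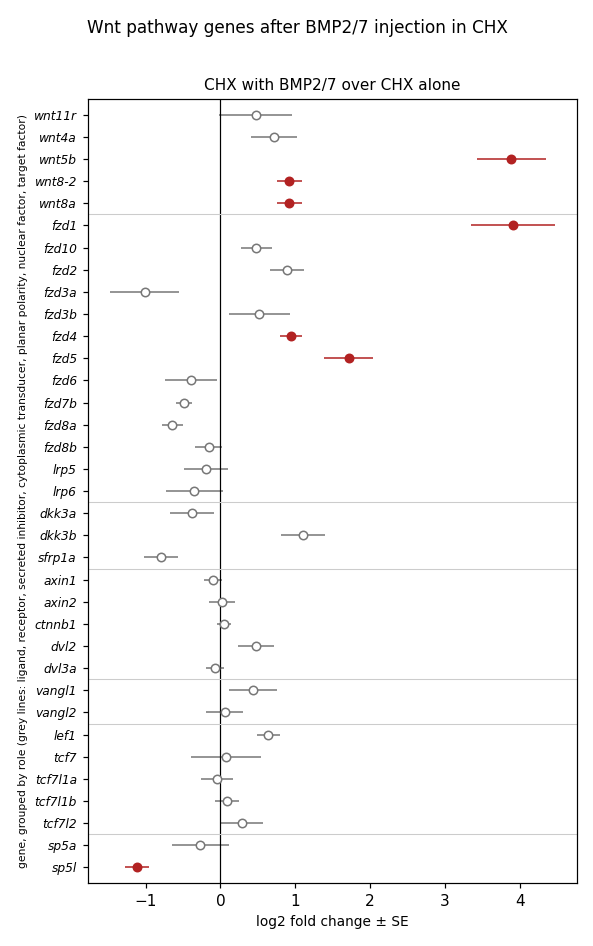
Log2 fold change (x axis, ± SE) of the 35 Wnt pathway genes tested (y axis, grouped by role), CHX with BMP2/7 over CHX alone. Filled red points passed an adjusted p of 0.05; fzd1 and wnt5b lie farthest to the right, at 3.91 and 3.89, and sp5l is the filled point left of 0, at −1.12.

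sp5l had 145, 89.5 and 114.9 CPM in CHX+BMP2/7 embryos, against 265, 237 and 264 CPM in CHX embryos. It fell by 1.12 on the log2 scale (SE 0.17, adjusted p = 0.0126). The related target gene sp5a had 12.9, 22.4 and 8.18 CPM in CHX+BMP2/7 embryos, against 12.2, 23.9 and 16.9 CPM in CHX embryos, with overlapping groups (adjusted p = 0.919). axin2 had 191, 120.8 and 138 CPM in CHX+BMP2/7 embryos, against 136, 168 and 146 CPM in CHX embryos, also overlapping, and its log2 fold change of 0.02 (SE 0.17) allowed no direction.

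Same-numbered CHX libraries deviated together, so the replicate number was taken as a pairing found in the data. With it as a block, 14 of 35 members were called, 10 higher and 4 lower, where the 7 above were all among them. These were 40% of the members tested, beside 7.94% of all genes tested under the same block. The block took the calls over all genes to 750, against 213 without it, which is a larger increase than that of the members. The 7 added were fzd2 (log2 fold change 0.91, adjusted p = 0.00446), lef1 (log2 fold change 0.65, adjusted p = 0.00883), dkk3b (log2 fold change 1.104, adjusted p = 0.0306) and wnt4a (log2 fold change 0.75, adjusted p = 0.0333), which were higher. They also included fzd8a (log2 fold change −0.65, adjusted p = 0.00232), fzd7b (log2 fold change −0.48, adjusted p = 0.00384) and sfrp1a (log2 fold change −0.78, adjusted p = 0.037), which were lower. Blocked, 6 of the 14 calls were receptor genes, including both directions. In contrast to fzd4 and fzd5, dkk3b was called higher and sfrp1a lower both here and in untreated mutants at 6 hpf.

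Among these added genes, lef1 had 39.4, 34.7 and 36.9 CPM in CHX+BMP2/7 embryos, against 22.3, 22.0 and 28.0 CPM in CHX embryos. The groups did not overlap, and without the block its adjusted p was 0.1. fzd7b had 321, 347 and 312 CPM in CHX+BMP2/7 embryos, against 418, 521 and 454 CPM in CHX embryos, without overlap. fzd8a had 49.8, 39.7 and 50.2 CPM in CHX+BMP2/7 embryos, against 77.4, 66.0 and 78.0 CPM in CHX embryos, also without overlap.

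The unblocked calls varied with the libraries. Without CHX replicate 1, 2 remained (wnt5b and fzd5), and without CHX+BMP2/7 replicate 1, 2 remained (wnt5b and sp5l). Without CHX replicate 3 and without CHX+BMP2/7 replicate 2, 4 remained each time, and in all 6 cases all 7 kept their direction. Without CHX replicate 2 the log2 fold change was 4.72 for wnt5b and 4.83 for fzd1.

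Outside the symbol rule, 34 of the 62 pathway components were tested in CHX embryos, of which 4 were higher with BMP2/7 and 1 lower, or 14.7% beside 2.26% of all genes tested. tle3a had 28.9, 25.1 and 27.9 CPM in CHX+BMP2/7 embryos, against 11.4, 10.0 and 10.2 CPM in CHX embryos (log2 fold change 1.39, SE 0.15, adjusted p = 0.0032). The others higher were tle3b (log2 fold change 1.02, adjusted p = 0.00648), nkd1, a Dishevelled-binding feedback inhibitor (log2 fold change 2.71, adjusted p = 0.0124), and wif1 (log2 fold change 2.86, adjusted p = 0.0121). dact1, which encodes a Dishevelled-binding modulator, was lower (log2 fold change −1.06, adjusted p = 0.0177). tle3a was thus lower in untreated mutants at both stages and higher with BMP2/7, while wif1 was higher in untreated mutants at 8 hpf and also higher with BMP2/7.

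nkd1 had 52.1, 53.1 and 32.5 CPM in CHX+BMP2/7 embryos, against 5.48, 11.7 and 3.89 CPM in CHX embryos. Of the 18 Wnt/β-catenin targets tested there, 7 were higher (ved, vent, vox, cdx1a, cdx4, ta and nkd1) and 1 lower (sp5l). These were 44.4% of those tested, beside 2.26% of all genes tested, and the list had a median log2 fold change of 0.64. The counts overlap those above, as sp5l is a member and nkd1 is also among the pathway components outside the symbol rule. cdx4, a caudal factor, had 296, 181 and 167 CPM in CHX+BMP2/7 embryos, against 5.05, 23.2 and 6.99 CPM in CHX embryos (log2 fold change 4.18, SE 0.56, adjusted p = 0.00842). The homeobox repressor gene vent had 281, 343 and 291 CPM in CHX+BMP2/7 embryos, against 108, 118.2 and 148 CPM in CHX embryos. nkd1, cdx1a, ved, vent and vox are in the study's own target list.

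From 6 to 8 hpf, the calls of both genotypes in the fit of the 8 untreated libraries were all higher at the later stage. In wild-type embryos 2 of 35 members were higher at 8 hpf (wnt8b and fzd10), 5.71% beside 1.75% of all genes tested. In the mutants 4 of 35 were higher at 8 hpf (wnt8b, fzd10, sfrp5 and fzd3a), 11.4% beside 10.9% of all genes tested, which is close to the share of all genes. The median log2 fold change of the members was 0.37 in wild-type embryos and 0.28 in mutants. fzd4 was lower at 8 hpf in mutants without a call (log2 fold change −1.08, SE 0.32, edgeR adjusted p = 0.0618), and its stages did not overlap there. DESeq2, edgeR with no filter on low counts and edgeR with the replicate block called it lower.

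wnt8b, a ligand of the neural plate, was near 0 at 6 hpf. In mutants it had 5.52 and 12.0 CPM at 8 hpf, against 0 and 0.189 CPM at 6 hpf, and in wild-type embryos 3.16 and 4.80 CPM at 8 hpf, against 0.0599 and 0.0494 CPM at 6 hpf. Summed over libraries, with 2 counts in each genotype at 6 hpf, the ratio of 8 over 6 hpf was 115.6 in mutants (95% counting interval 31.6 to 961) and 73.5 in wild-type embryos (19.9 to 614). The adjusted p was 0.00461 in mutants and 0.0177 in wild-type embryos.

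fzd10, a Frizzled receptor gene, had 73.2 and 78.1 CPM at 8 hpf in mutants, against 42.8 and 45.8 CPM at 6 hpf (log2 fold change 0.81, SE 0.18, adjusted p = 0.0253). In wild-type embryos it had 78.5 and 82.8 CPM at 8 hpf, against 32.9 and 35.1 CPM at 6 hpf (log2 fold change 1.25, SE 0.18, adjusted p = 0.0188). The replicates of fzd10 lay close together in every untreated group.

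sfrp5 had 10.8 and 10.7 CPM at 8 hpf in mutants, against 0.810 and 2.74 CPM at 6 hpf (log2 fold change 2.63, SE 0.61, adjusted p = 0.0282). In wild-type embryos it had 7.74 and 5.75 CPM at 8 hpf, against 2.22 and 5.63 CPM at 6 hpf, without a call (adjusted p = 0.511). fzd3a, lower in mutants at 6 hpf, was higher at 8 than at 6 hpf in mutants (log2 fold change 1.14, SE 0.30, adjusted p = 0.0426), and in wild-type embryos its stages overlapped (log2 fold change 0.18, SE 0.29).

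**Figure D5:**
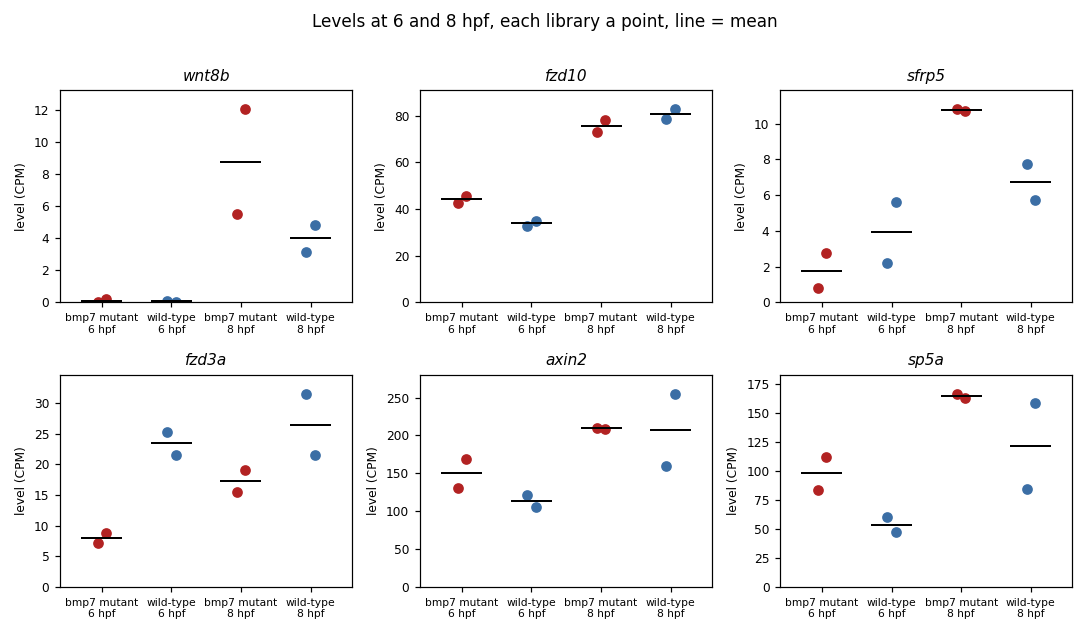
Levels (y axis, CPM) of 6 Wnt pathway genes in untreated bmp7 mutant (red) and wild-type (blue) embryos at 6 and 8 hpf, each point a library and each line the mean of 2. wnt8b is near 0 in all 4 libraries at 6 hpf, and fzd10 lies above 70 CPM in all 4 libraries at 8 hpf.

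In wild-type embryos the readouts axin2 and sp5a gave positive values without a call, axin2 with a log2 fold change of 0.87 (SE 0.24, adjusted p = 0.112) and sp5a with 1.17 (SE 0.30, adjusted p = 0.0913). DESeq2 called both higher at 8 hpf, and with no filter on low counts sp5a was called. No member passed the test of the genotype by stage interaction, which asks whether the genotype difference itself changes with stage. Across all 10029 genes the edgeR test called 0%, with 555 at an unadjusted p under 0.05, and 4 members were among those: fzd3a, fzd4, lef1 and sfrp5. DESeq2 called 28 genes and no member. A genotype difference called at 6 hpf alone or at 8 hpf alone is therefore not shown to differ between the stages.

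The stage calls also moved with single libraries. In wild-type embryos both were lost without wild-type replicate 1 at 6 hpf and in the fit of the 4 wild-type libraries alone, and fzd10 was lost without either library at 8 hpf of either genotype. In mutants 1 call (wnt8b) remained without mutant replicate 1 at 6 hpf or at 8 hpf, and none without mutant replicate 2 at 8 hpf. Without mutant replicate 2 at 6 hpf, wnt8b and sfrp5 remained. In mutants the log2 fold change of sfrp5 was 1.99 without replicate 1 at 6 hpf and 3.76 without replicate 2 at 6 hpf, and the counts of wnt8b at 6 hpf were all in replicate 2.

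CHX alone was set against untreated mutants at 6 hpf to describe the state in which BMP2/7 was given. Treatment, stage and experiment cannot be told apart here, and 58.0% of all 10776 genes tested were called. Of 39 members tested, 23 were called, or 59%, a share near that of all genes, with 7 higher and 16 lower. The lower ones included all 3 secreted inhibitors called, both target factors, wnt5b and the wnt8a pair. Tissue markers also differed. The 3 enveloping layer markers summed to 189 to 741 CPM in CHX embryos, against 5736 to 6399 CPM in untreated mutants, with krt5 at 0 in CHX embryos and both markers tested (krt4 and cyt1) lower. The 3 neural ectoderm markers summed to 108 to 188 CPM in CHX embryos, against 648.5 to 798 CPM in untreated mutants, and all 3 (sox2, sox3 and zic2a) were lower. The part of these tissues in the counts of members was not tested.

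wnt8a had 72.8, 78.9 and 64.4 CPM in CHX embryos, against 361 and 868 CPM in untreated mutants (log2 fold change −3.09, SE 0.33, adjusted p = 6.45e-06, or −2.33 without untreated mutant replicate 2), and wnt5b 1.56, 4.04 and 0.953 CPM in CHX embryos, against 29.3 and 20.6 CPM in untreated mutants (log2 fold change −3.46, SE 0.42, adjusted p = 1.71e-05, or −4.29 without CHX replicate 2). ctnnb1 had 1028, 1211 and 1143 CPM in CHX embryos, against 2526 and 2053 CPM in untreated mutants (log2 fold change −1.02, SE 0.13, adjusted p = 2.49e-05). fzd4 lay the other way, with 104, 90.5 and 122.2 CPM in CHX embryos, against 36.6 and 19.2 CPM in untreated mutants (log2 fold change 1.92, SE 0.25, adjusted p = 3.33e-05). The fold of BMP2/7 over CHX for wnt5b was thus taken from a CHX level below that of the untreated embryos, and for fzd4 from one above it. wnt4a, a ligand, had 196 counts over the CHX libraries, against 3 over the untreated mutants (ratio 31.0, 95% counting interval 10.5 to 152). Counting intervals cover counting error only.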

How the data were processed

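RNA was measured by stranded polyA RNA sequencing of whole embryos in 14 libraries. With the RNA-seq Unified Mapper, and GRCz11 as the genome, the authors made and deposited raw read counts per RefSeq transcript (14532 rows), which were used here. The sources used here do not say whether counting used strand. A further 14 library columns of normalized log2 values, and the authors' comparison columns (fold changes, average levels, p-values and false discovery rates), were not used. For untreated libraries the comparison headings name the genotypes the other way round from the library headings; samples were mapped by the library headings, and the replicate number is the number after C in them.

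Differences in counts came from glmQLFTest, the quasi-likelihood test of edgeR (version 4.0.16, R 4.3.3), with TMM factors and rows kept by filterByExpr at a minimum count of 10. The 8 untreated libraries were fitted as 4 groups, the 6 CHX libraries as 2, and all 14 as 6 for CHX alone over untreated mutants. Adjustment was by Benjamini-Hochberg over all rows tested, and members were called at an adjusted p under 0.05. Libraries are not labelled as separate clutches, so p-values measure the spread between libraries, which may be technical. Simulated counts with 200 changed genes were used to test the script. For wnt8b and wnt4a, where a group summed to 1 to 3 counts, a ratio with an exact 95% counting interval is given.

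Same-numbered CHX libraries correlated in their deviations from group means at 0.411, 0.745 and 0.644, all above 0.1. This pairing comes from the data, not from the labels. Alternatives were DESeq2 1.42.0, RLE factors, no filter, the replicate number as a block, transcripts summed per gene, other libraries in the fit, and leaving out each library. The members, gene lists and tests were chosen with earlier results of these data known. Named are all members called outside the CHX-alone comparison, a fixed list of well-known members, and called genes of the further lists, at most 5 per list and comparison by smallest p. dkk1b, fzd7a, fzd9b and sfrp1b were on that list, but no row of the table carried these symbols, so they are not analysed here. Current names came from RefSeq for GRCz12tu, and no sequence or coordinate is given.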

Additional observations from a re-analysis of the deposited data

Results flagged for a closer look

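Of the 35 members tested, 3 had groups that did not overlap and lay in opposite orders between the genotypes or stages. The share over all genes was not counted, so how unusual these 3 are is not known. None of the 3 passed the interaction test. lef1 was lower at 8 than at 6 hpf in mutants (52.7 and 58.1 CPM, against 85.2 and 88.3 CPM) and higher at 8 hpf in wild-type embryos (92.9 and 105 CPM, against 85.3 and 67.8 CPM). The interaction test gave a log2 fold change of −0.98 (SE 0.27, unadjusted p = 0.00587, adjusted p = 0.695, edgeR), so the difference did not pass the threshold. tcf7l1b was lower at 8 hpf in mutants (94.6 and 97.9 CPM, against 118.4 and 102 CPM at 6 hpf) and higher in wild-type embryos (104 and 132 CPM, against 78.7 and 103 CPM at 6 hpf), with an interaction of −0.53 (SE 0.29, adjusted p = 0.901). fzd10 was above wild-type in mutants at 6 hpf (42.8 and 45.8 CPM, against 32.9 and 35.1 CPM) and below it at 8 hpf (73.2 and 78.1 CPM, against 78.5 and 82.8 CPM), with an interaction of −0.44 (SE 0.25, adjusted p = 0.914).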

How the results depend on the processing

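With RLE factors and with transcripts summed per gene, all 65 member results kept their direction and their side of the threshold. DESeq2 called 5 members in the mutants at 8 hpf, 12 with BMP2/7, and 4 (wild-type) and 7 (mutant) between stages. With the replicate block 14 were called with BMP2/7 and 7 between stages in mutants, and no other count of members moved by over 1.5 times. Same-numbered untreated libraries correlated in their deviations from group means at −0.0313 to 0.484. The value was 0.484 between the wild-type stages and 0.372 between the mutant stages. Between genotypes it was 0.247 at 6 hpf and −0.0313 at 8 hpf. The labels give these libraries no pairing beyond the number. With only the 4 libraries of a stage or genotype, 5 members were called in mutants at 6 hpf and 0 between stages in wild-type embryos. Leaving out each library in turn gave 0 to 10 members called in mutants at 6 hpf, 0 to 3 at 8 hpf, 2 to 7 with BMP2/7, 0 to 2 between stages in wild-type embryos, 0 to 5 in mutants and 19 to 26 for CHX alone, and 0 throughout for the interaction. Some results without a call changed sign with a library left out: in mutants at 6 hpf fzd4 ranged over −0.72 to 0.17 and lef1 over −0.026 to 0.34, at 8 hpf axin2 over −0.28 to 0.38, and with BMP2/7 axin2 over −0.17 to 0.15 (−0.05 without CHX replicate 1) and sp5a over −0.73 to 0.015. The cause was not tested. Over all genes, called counts moved from 1548 to 2407 (block), 854 (4 libraries) and 262 to 1562 (a library left out) in mutants at 6 hpf. At 8 hpf 316 became 915 (DESeq2), 941 (block), 628 (no filter), 577 (4 libraries) and 44 to 465. With BMP2/7 213 became 375 (DESeq2), 750 (block) and 89 to 192. Between stages 176 became 576 (DESeq2), 525 (block), 389 (no filter), 8 (4 libraries) and 12 to 227 in wild-type embryos, and 1092 became 1652 (block) and 54 to 1245 in mutants. The 14 members with at most 6 counts in any library passed no filter on low counts and could not be tested at this depth. How depth or the number of libraries bears on the other calls was not tested.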
